A study of Mus musculus with 2 samples.

Results

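Notch1 binding was examined at 41 genes that make or regulate the antigen-presenting molecules of the major histocompatibility complex (MHC). They were chosen by name from the 21938 nuclear protein-coding genes of the GENCODE M21 annotation. Of the 41 genes, 34 carry a symbol that starts with H2-, the name of the mouse MHC, and the other 7 are B2m, Tap1, Tap2, Tapbp, Cd74, Ciita and Nlrc5. The cells were primary gamma delta T cells, a T lymphocyte lineage with a receptor of a gamma and a delta chain. They came from thymus of C57BL/6 mice that were wild type and 0 to 3 days old. Chromatin bound by the rabbit Notch1 antibody D1E11 was sequenced (ChIP-seq), and its peak list held 5910 nuclear peaks on build mm10. The design was 1 Notch1 library and 1 input library without antibody. The input is not analysed here, so no peak was set against input and no difference was tested between libraries. The labels do not say how many animals contributed. A peak list holds no expression values, so the labelled cell type could not be checked against its markers.

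Class I molecules pair a heavy chain with beta-2 microglobulin, the product of B2m, and show peptides from the cytosol to T cells on nearly all nucleated cells. Peptides cut by the proteasome are carried into the endoplasmic reticulum by the Tap1 and Tap2 transporter, and tapasin, the product of Tapbp, helps to load them. Class II molecules are alpha and beta chain pairs found mainly on professional antigen-presenting cells. The invariant chain Cd74 guards their groove, and H2-DM and H2-DO control the exchange of peptides there. Promoters of both classes hold X and Y boxes bound by RFX, CREB and NF-Y proteins, on which the transactivators Ciita (class II) and Nlrc5 (class I) assemble. Notch1 is a surface receptor whose released intracellular domain acts in the nucleus with the DNA-binding protein RBPJ. The stated purpose of the study was to find where that domain binds.

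Sequence of the peaks nearest to these genes is shown because 3 of the 41 genes rest on the first 4 of these peaks alone. The last peak lies between the genes of the class II chains H2-Aa and H2-Eb1. All are mm10, 5′ to 3′ on the plus strand. Each is the longest stretch of the peak outside annotated untranslated regions, reduced to its central 300 bases where longer. Capitals mark any of 10 strings found on either strand. These were the RBPJ core TGGGAA, the X box CCTAGNNAC, an interferon-stimulated element, the CRE TGACGTCA and its core TGACG, and the NF-Y box CCAAT. The remaining strings were the kappa B string GGGANTTCC and a longer kappa B string, the ETS string CCGGAA and the RUNX string TGTGGT. The CRE core lies within the CRE, and the others can overlap one another.
H2-DMa start, 203 bases, chr17:34122629-34122831, plus strand: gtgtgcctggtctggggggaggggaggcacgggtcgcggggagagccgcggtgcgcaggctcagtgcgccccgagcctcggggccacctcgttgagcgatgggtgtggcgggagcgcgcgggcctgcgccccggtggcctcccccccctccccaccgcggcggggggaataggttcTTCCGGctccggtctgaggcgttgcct
H2-DMa intron, 300 bases, chr17:34127612-34127911, plus strand: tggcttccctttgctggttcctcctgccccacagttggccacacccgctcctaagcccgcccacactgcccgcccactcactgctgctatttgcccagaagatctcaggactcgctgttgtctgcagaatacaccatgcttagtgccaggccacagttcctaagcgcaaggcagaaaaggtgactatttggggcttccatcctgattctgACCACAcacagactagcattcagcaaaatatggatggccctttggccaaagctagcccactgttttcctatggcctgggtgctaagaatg
Tap1 3′ flank, 169 bases, chr17:34197226-34197394, plus strand: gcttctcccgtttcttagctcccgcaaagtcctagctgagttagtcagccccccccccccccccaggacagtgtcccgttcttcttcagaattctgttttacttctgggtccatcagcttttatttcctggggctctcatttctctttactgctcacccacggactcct
Tap2 upstream, 142 bases, chr17:34201045-34201186, plus strand: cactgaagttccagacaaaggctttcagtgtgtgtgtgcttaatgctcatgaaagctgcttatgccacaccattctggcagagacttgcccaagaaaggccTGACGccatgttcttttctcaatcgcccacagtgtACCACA
Between H2-Aa and H2-Eb1, 300 bases, chr17:34295767-34296066, plus strand: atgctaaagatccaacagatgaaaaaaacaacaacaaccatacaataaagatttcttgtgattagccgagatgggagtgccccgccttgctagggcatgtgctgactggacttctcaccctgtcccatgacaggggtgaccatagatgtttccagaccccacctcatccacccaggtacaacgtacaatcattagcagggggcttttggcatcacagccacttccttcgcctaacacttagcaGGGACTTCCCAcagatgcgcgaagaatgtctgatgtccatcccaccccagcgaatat

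Of the 41 MHC genes 3 had a Notch1 peak within 5 kb of an annotated start site, namely H2-DMa, Tap1 and Tap2. That was 7.32% of them (Wilson 95% interval 2.52 to 19.4), beside 8.81% of all protein-coding genes and 11.2% of those on chromosome 17. Among the 1019 other genes of chromosome 17 the share was 11.3% (9.49 to 13.4). The interval of the MHC genes holds both of these shares, so at this number of genes a difference was not detectable. Intervals cover counting error only, and genes that sit side by side share peaks.

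None of the 24 class I genes had a peak within 5 kb (0%, Wilson 0 to 13.8). That interval holds the 8.81% of all protein-coding genes and the 11.3% of other chromosome 17 genes. It does not hold the 18.2% of the 137 other genes inside the MHC region, whose own interval (12.7 to 25.6) overlaps it. The 24 class I genes were the classical genes H2-K1 and H2-D1, 6 genes of the Q group, 4 of the T group and 12 of the M group. Of 9 class II genes 1 had a peak, H2-DMa. Of the 4 genes for B2m, the peptide transporter and tapasin, Tap1 and Tap2 had one. Neither the invariant chain gene Cd74 nor the transactivator genes Ciita and Nlrc5 had a peak in that window. H2-Ke6, another name for Hsd17b8, encodes a steroid dehydrogenase and no presenting molecule, and it also had none.

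H2-DMa encodes the alpha chain of H2-DM, which frees class II molecules of the invariant chain peptide. The gene lies on chromosome 17 from 34119541 to 34139101 on the plus strand, and 2 peaks lay within 5 kb of its start sites. The first peak spanned 34122629 to 34123036 (408 bp, score 648) and covered a protein-coding start site of H2-DMa at 34122832. H2-DMa has 8 annotated start sites, and not all of them lie at this peak. The same peak covered a start site of Brd2 at 34122634 on the opposite strand and lay 29 bp from a protein-coding start site of Brd2. Brd2 encodes a bromodomain protein that binds acetylated histones. Because both genes have start sites at this peak, it cannot be assigned to H2-DMa rather than to Brd2. The second peak spanned 34127567 to 34127956 (390 bp, score 526) in an intron of an H2-DMa transcript, 4721 bp from the nearest H2-DMa start site and 4933 bp from the nearest of Brd2.

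Tap1 and Tap2 encode the 2 chains of the peptide transporter, and their peaks lay just upstream of and inside Psmb8, a gene of the immunoproteasome that stands between them. The Tap1 peak spanned 34196971 to 34197394 (424 bp, score 544) over the last exon of Tap1, and it extended past the end of the gene. Its nearest Tap1 start site, 3917 bp away, belongs to a retained-intron transcript, while the start of Psmb8 lay 327 bp downstream. The Tap1 call ended when start sites of protein-coding transcripts alone were counted. The Tap2 peak spanned 34201045 to 34201272 (228 bp, score 1751) over an exon of Psmb8, 2255 bp upstream of a protein-coding start site of Tap2 and 1691 bp downstream of a Psmb8 start. With peaks assigned only to the closest start site, H2-DMa was the 1 gene of the 41 left with a peak, through the tie with Brd2 and the intronic peak. All 4 peaks also lay within 5 kb of a start site of Brd2 or Psmb8, which are not among the 41 genes. Among other protein-coding genes with a peak, 27.1% had only peaks shared in this way with another gene, and among the 25 such genes inside the MHC region 72% did (18 genes).

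The score of a peak is the authors' own value. It was used here to rank peaks within the list, and its unit is not given in the sources used here. The first H2-DMa peak stood at percentile 26.7 of nuclear peaks by score, the intronic one at percentile 4.74 and the Tap1 peak at percentile 6.18. The Tap2 peak stood at percentile 97.3. Thus 3 of the 4 peaks were below the median score of 718, and the Tap2 peak alone was in the upper quartile. The median of the 4 was 596, beside 754 for peaks within 5 kb of other chromosome 17 genes.

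Little of the 4 peaks was repeat sequence. Soft-masked bases, which the assembly prints in lower case as interspersed or simple repeats, made up 18.1% and 16.7% of the H2-DMa peaks, 13% of the Tap1 peak and 11.8% of the Tap2 peak. The median was 14.8%, beside 12.2% for 2039 peaks within 5 kb of other protein-coding genes and 13% for 115 such peaks on chromosome 17. None of the 4 peaks was at least 50% soft-masked, compared with 7.16% of the peaks near other genes and 9.57% on chromosome 17. None held a repeated 32-base string, meaning one found at several places in the assembly, which was also true of 73.2% of peaks near other genes. The 3 genes therefore kept their peaks when repeat-rich peaks were left out. With 4 peaks no difference in repeat content could be shown.

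**Figure D1:**
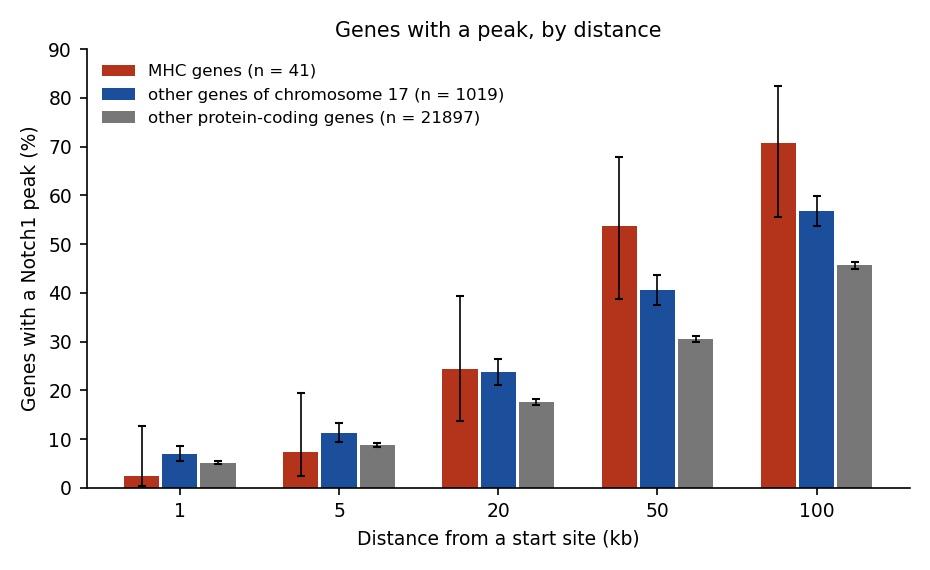
Bars give the percentage of genes with a Notch1 peak within 1, 5, 20, 50 and 100 kb of a start site for the 41 MHC genes, other genes of chromosome 17 and all other protein-coding genes, and error bars are Wilson 95% intervals. At 5 kb the MHC genes stand at 7.32% with an interval that holds both other shares, and at 100 kb they stand at 70.7%.

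Wider windows took in more of the MHC genes. Within 20 kb 10 of the 41 had a peak (24.4%, Wilson 13.8 to 39.3), beside 17.7% of all protein-coding genes and 23.8% of those on chromosome 17. The 7 genes added were H2-K1, H2-DMb2, H2-Aa, H2-Eb1, H2-M10.2, H2-M10.4 and Nlrc5. Within 50 kb the count was 22 (53.7%, 38.7 to 67.9), beside 30.6% of all genes and 41% on chromosome 17. Within 100 kb it was 29 (70.7%, 55.5 to 82.4), beside 45.7% and 57.4%. Within 1 kb H2-DMa alone had a peak (2.44%), beside 5.16% and 6.72%. The median distance to the nearest peak was 46.3 kb for the MHC genes, 76.2 kb for other genes of chromosome 17 and 119 kb for all other protein-coding genes. The 137 other genes inside the MHC region were nearer still, with a median of 29.6 kb and shares of 43.8% within 20 kb, 60.6% within 50 kb and 75.9% within 100 kb. Neighbouring MHC genes often share their nearest peak, so these values do not come from 41 separate peaks.

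Class II genes had a median distance of 25.1 kb to the nearest peak, beside 29.6 kb for other genes inside the MHC region. H2-Aa, which encodes the alpha chain of I-A, lay 7.93 kb from its nearest peak, and H2-Eb1, the gene of the I-E beta chain, lay 9.79 kb from the same one. That peak spanned 34295752 to 34296081 (330 bp, score 714, 8.48% soft-masked) in the interval between them. It held 1 RBPJ core, which overlaps a kappa B string in the printed sequence. The joined string, in which the last letters of the kappa B string begin the core, was searched after this sequence had been seen. It occurred in 11 of 5910 peaks (0.186%) and in 30 of 32851 promoters (0.0913%), that of H2-Q4 among them. Peaks had a median width of 370 bp and promoters were searched over 250 bases, so these shares cannot be set against each other. H2-Ab1, the I-A beta chain gene, lay 27.5 kb from this peak. The genes of the other DM and DO chains, which act in peptide exchange, lay 15.4 kb (H2-DMb2), 25.1 kb (H2-DMb1), 30.2 kb (H2-Oa) and 37.6 kb (H2-Ob) from a peak. All 9 class II genes were within 50 kb of one, beside 60.6% of other genes inside the region, and several of the 9 share a nearest peak.

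Class I genes lay farther out than class II genes, with a median of 78.4 kb and a range of 11.1 to 423 kb. That median was near the 76.2 kb of other chromosome 17 genes and below the 119 kb of all other protein-coding genes. It was above the 29.6 kb of the 137 other genes inside the MHC region. Within 100 kb of a peak were 58.3% of class I genes (Wilson 38.8 to 75.5), beside 56.8% of other chromosome 17 genes. Among other genes inside the MHC region that share was 75.9% (68.1 to 82.3). The classical genes H2-K1 and H2-D1, which encode the main peptide-presenting heavy chains, lay 16.2 and 42.9 kb from a peak. The Q group ranged from 46.4 kb at H2-Q10 to 137 kb at H2-Q4, with H2-Q7, which encodes Qa-2, at 74.3 kb. In the T group, H2-T23 encodes Qa-1, a ligand of inhibitory receptors on natural killer and T cells, and lay 114 kb away. H2-T22, whose product some gamma delta T cell receptors bind directly, lay 124 kb away. H2-T3, which encodes the thymus leukemia antigen, lay 40.7 kb from a peak. The M group ranged from 11.1 kb at H2-M10.4 to 423 kb at H2-M2, and H2-M3, whose product presents peptides with a formyl group, was at 209 kb.

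Genes outside the block of H2 genes also had no peak within 5 kb. The median distance of all other protein-coding genes was 119 kb. B2m and Ciita lay farther from a peak than that, and Nlrc5 and Cd74 lay nearer. The peak nearest to B2m on chromosome 2 lay 123 kb off (score 1042). Nlrc5 on chromosome 8 had one 18.8 kb upstream (score 667, 27.6% soft-masked), which was nearer to Nlrc5 than to any other protein-coding gene. Ciita on chromosome 16 was 240.1 kb from its nearest peak, which lay in an intron of Clec16a and was nearer to a start site of Socs1. Cd74 lay 29.2 kb from a peak of score 1761, and that peak covered a start site of the ribosomal protein gene Rps14. Tapbp, on chromosome 17 just outside the block of H2 genes, lay 53.9 kb from a peak, beside a median of 76.2 kb for other chromosome 17 genes.

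**Figure D2:**
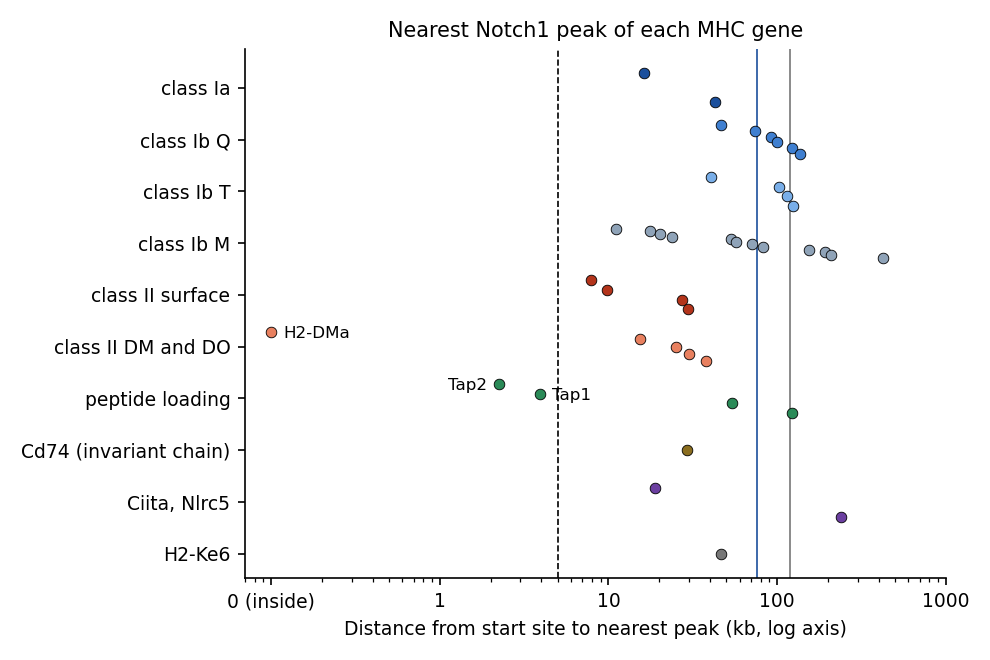
Each point is 1 of the 41 MHC genes, placed by the distance from its closest start site to the nearest Notch1 peak on a log axis in kb, with a gene whose start lies inside a peak drawn at the left end. The dashed line marks 5 kb, and the solid lines mark the medians of other genes of chromosome 17 (76.2 kb) and of all other protein-coding genes (119 kb); H2-DMa, Tap2 and Tap1 alone lie left of the dashed line.

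The MHC region of chromosome 17 was then compared with the rest of that chromosome. Taken from the first base of H2-K1 to the last of H2-M2 (33996017 to 37483552), it held 28 peaks in 3.49 Mb, or 8.03 per Mb (exact Poisson 95% interval 5.33 to 11.6, counting error only). The rest of chromosome 17 held 264 peaks in 88.2 Mb without gaps, or 2.99 per Mb (2.64 to 3.38). The region is also denser in genes, with 49.6 protein-coding genes per Mb beside 10. Per 100 protein-coding genes it held 16.2 peaks, and the rest of the chromosome held 29.9. Of 137 genes in the region that are not among the 41, 25 had a peak within 5 kb (18.2%, Wilson 12.7 to 25.6), compared with 90 of 882 genes elsewhere on the chromosome (Wilson 8.38 to 12.4%). Peaks of the region were 14% soft-masked by the median, beside 15.8% for the rest of chromosome 17, and 10.7% against 11.7% of them were at least 50% soft-masked. Of the sequence itself, 33.3% and 33.6% was soft-masked.

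Peaks were unevenly placed inside the region, and the blocks described here were set after the peaks had been seen. The stretch from H2-K1 to H2-Eb2, which holds the class II genes, had 5 peaks in 0.345 Mb. The stretch between H2-Eb2 and H2-D1 had 9 peaks and none of the 41 genes. From H2-D1 to H2-Q10, over 7 class I genes, there were 0 peaks in 0.212 Mb, where the exact Poisson upper bound is 17.4 per Mb. From H2-T24 to H2-T3, over 4 class I genes, there were 0 peaks in 0.185 Mb (upper bound 20 per Mb). Between these class I blocks, from H2-Q10 to H2-T24, 8 peaks lay in 0.531 Mb. The stretch beyond H2-T3, with the 12 M genes, had 6 peaks in 1.29 Mb. The longest stretch without a peak inside the region covered 423 kb up to its far end and held H2-M3 and H2-M2. That stretch is cut at the last base of the region. The next peak of the chromosome lay 5847 kb from the start of the region, so the peak-free sequence runs on outside it. In blocks this short, 0 peaks is within the counting error of the density of the whole region.

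Of the 173 protein-coding genes of the region 36 are among the 41, and most of its peaks lay closest to other genes. Of the 28 peaks 18 lay within 1 kb of a start site. The peak of highest score (3100, a value that 38 peaks share) spanned 36230958 to 36231685. It was intergenic and 47% soft-masked, and its closest protein-coding start was that of Rpp21, 24665 bp away. The next, of score 2998, spanned 35917333 to 35918392 at Ppp1r10, which encodes a subunit of nuclear protein phosphatase, and peaks of score 1085 and 943 lay beside it at Ppp1r10 and Mrps18b. The Tap2 peak ranked next after the Ppp1r10 peak of score 2998. Among the 10 peaks of highest score the others were an intergenic peak 11.1 kb from H2-M10.4 (1069) and peaks at Aif1 (1017), Gm16181 (1007), Lsm2 (999), Prrt1 (978) and Prrc2a (967). Of all 28 peaks, 4 had one of the 41 genes as the nearest by start site, and the tied H2-DMa and Brd2 peak came on top of these.

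**Figure D3:**
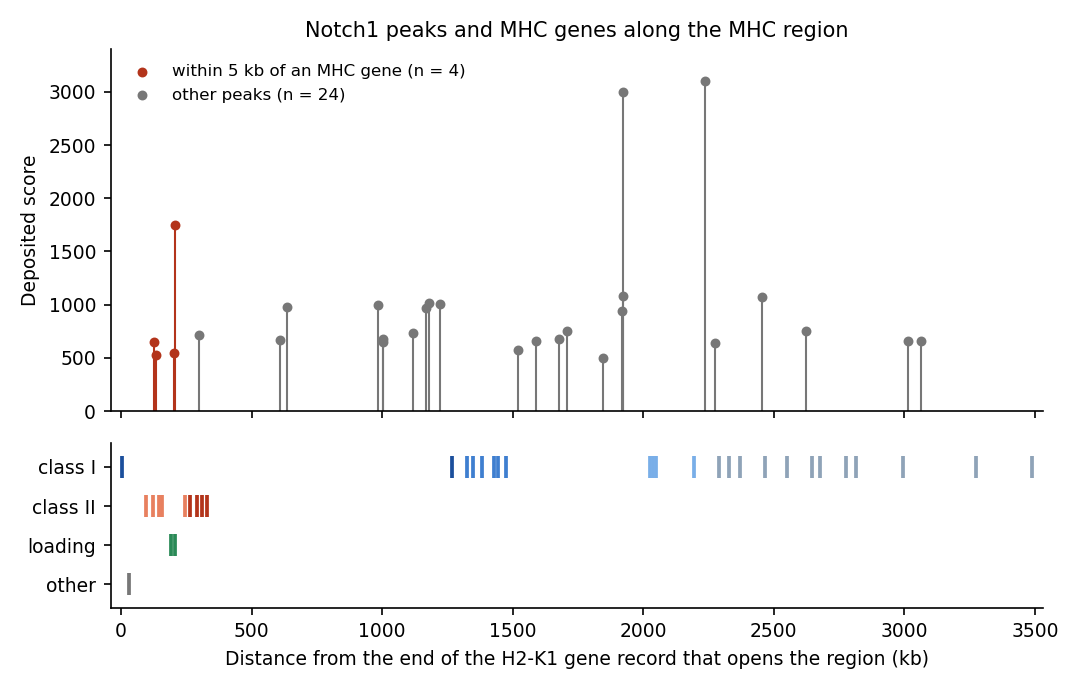
The upper panel gives the deposited score of the 28 peaks of the MHC region against the distance in kb from the first base of the H2-K1 gene record, with the 4 peaks within 5 kb of an MHC gene in red, and the lower panel marks the start of each MHC gene by class. The 4 red peaks fall in the class II block, and 0 peaks fall in the block from H2-D1 to H2-Q10 or in that from H2-T24 to H2-T3.

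Class I genes form a family with much shared sequence, so the uniqueness of the sequence around each gene was measured. In the 10 kb around the start of each gene record, the share of repeated 32-base strings had a median of 21.7% over the 24 class I genes and 8.13% over the 9 class II genes. Over the 1019 other genes of chromosome 17 it was 6.7%. Over the class I genes the share ranged from 2.44 to 72.3%, and 14 of the 24 were over 20%. These included H2-K1 (31%), H2-D1 (20.1%), H2-Q6 (66.1%), H2-Q7 (72.3%), H2-T22 (52.1%) and H2-T23 (46.7%). Class I genes with lower shares had no peak within 5 kb either, such as H2-T3 (16.2%), H2-M3 (6.91%) and H2-M11 (2.44%). The share was 2.05% at H2-DMa, 3.94% at Tap1, 12.2% at Tap2 and 1.96% at B2m. Soft-masked bases did not set the class I genes apart in this way, with medians of 22.7% for class I, 24.9% for class II and 24.7% for the other genes of chromosome 17.

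Among the other genes of chromosome 17, those with much repeated sequence had a peak less often. Of the other chromosome 17 genes with over 20% repeated strings, 4 of 158 had a peak within 5 kb (2.53%, Wilson 0.989 to 6.33). With over 10 to 20%, 16 of 186 did (8.6%, 5.36 to 13.5). With up to 10% repeated strings, 95 of 675 did (14.1%, 11.7 to 16.9). Of the MHC genes, 0 of 15 with over 20% had a peak (upper bound 20.4%), and 2 of 18 with up to 10% did (11.1%, 3.1 to 32.8). Between these limits 1 of 8 MHC genes had one (12.5%, 2.24 to 47.1). These 3 intervals overlap, so no trend could be shown among the MHC genes. These limits on repeated strings were set after the values had been seen. How reads with several matches were treated is not given in the sources used here, and the part of repeated sequence in the class I count was not tested.

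**Figure D4:**
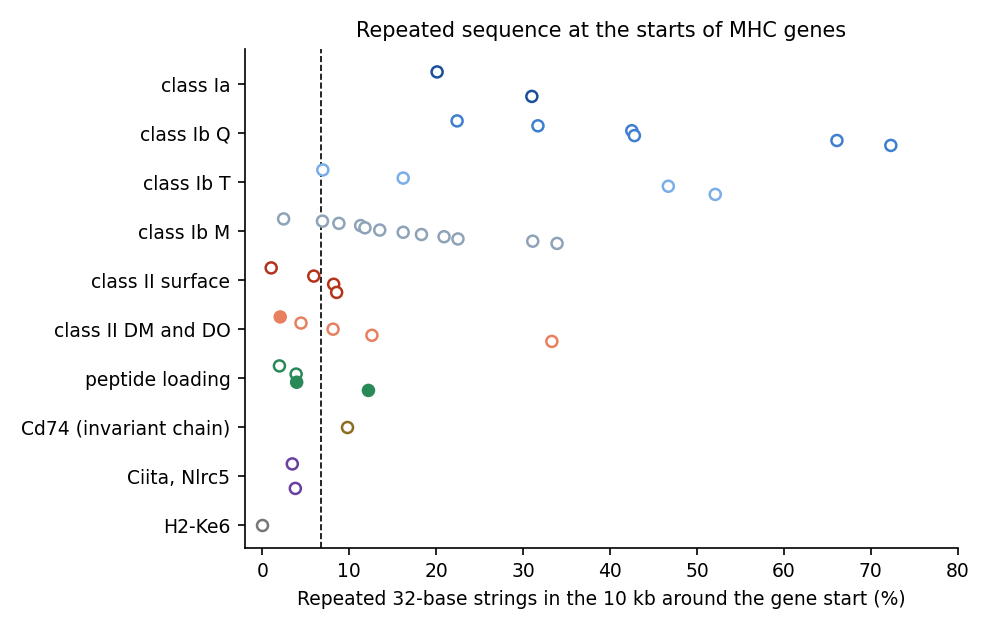
Each point is 1 of the 41 MHC genes, placed by the percentage of 32-base strings in the 10 kb around its start that are repeated elsewhere in the assembly, and filled where the gene had a Notch1 peak within 5 kb. The dashed line is the median of other chromosome 17 genes (6.7%); the Q genes run from 22.4 to 72.3% and are all unfilled, and the filled points H2-DMa, Tap1 and Tap2 lie between 2.05 and 12.2%.

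Promoters of 4 genes without a peak are shown for the strings their regulators are known to bind. Of the 41 genes 34 matched a RefSeq promoter of build GRCm38.p6. Those not matched were Cd74, Ciita, H2-Ab1, H2-Q1, H2-T24, Nlrc5 and Tap2. Each sequence is the 250 bases before the RefSeq start on the strand of the gene, up to the first annotated untranslated base, with the same strings in capitals except the CRE core.
H2-K1 promoter, chr17:34000348-34000597, minus strand: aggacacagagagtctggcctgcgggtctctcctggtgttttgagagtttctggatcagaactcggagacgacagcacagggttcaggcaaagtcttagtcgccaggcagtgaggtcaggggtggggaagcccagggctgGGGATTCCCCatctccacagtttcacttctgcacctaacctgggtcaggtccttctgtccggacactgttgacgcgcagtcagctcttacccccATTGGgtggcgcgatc
H2-Q7 promoter, chr17:35438905-35439154, plus strand: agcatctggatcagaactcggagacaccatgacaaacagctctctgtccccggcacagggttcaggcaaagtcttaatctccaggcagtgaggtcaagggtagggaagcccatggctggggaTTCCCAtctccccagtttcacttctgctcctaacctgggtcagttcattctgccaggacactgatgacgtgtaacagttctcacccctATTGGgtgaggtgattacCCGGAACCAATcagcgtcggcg
B2m promoter, chr2:122147437-122147685, plus strand: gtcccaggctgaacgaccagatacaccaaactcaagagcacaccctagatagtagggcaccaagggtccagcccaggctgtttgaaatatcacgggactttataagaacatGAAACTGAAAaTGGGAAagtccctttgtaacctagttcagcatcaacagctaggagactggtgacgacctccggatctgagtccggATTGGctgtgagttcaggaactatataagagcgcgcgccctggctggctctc
H2-Aa promoter, chr17:34287824-34288073, minus strand: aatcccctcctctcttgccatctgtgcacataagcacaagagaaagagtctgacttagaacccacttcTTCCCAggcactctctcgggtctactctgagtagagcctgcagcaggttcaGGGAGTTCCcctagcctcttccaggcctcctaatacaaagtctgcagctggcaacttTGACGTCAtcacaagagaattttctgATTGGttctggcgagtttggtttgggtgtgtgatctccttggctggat

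The NF-Y box was the string found in most of these genes. An NF-Y box lay in the 250 bases before the start in 31 of the 34 matched genes, including all 8 matched class II genes. A gene counted if any of its promoters held the string. For H2-DMa the promoter from 34125268 held it, and that from 34122582, which the first H2-DMa peak overlaps, did not. By promoter that was 33 of 37 (89.2%), beside 33.8% of all 32851 promoters in the table. H2-K1, H2-D1 and H2-Q6 held the long kappa B string, which 0.0852% of promoters hold. Class I genes share much sequence, so matches in several of them are not separate occurrences. In the spelling searched, the interferon-stimulated element was in B2m, H2-T22 and H2-T23 (2.98% of promoters). Other spellings of this element were not searched, so the remaining promoters, H2-K1 and H2-Q7 among them, cannot be said to lack it. H2-Aa alone held the full CRE (1.55%). The X box string as spelled here was in 5 genes (3.37% of promoters). The ETS string lay in 4 genes (12% of promoters) and the RUNX string in 7 (14%).

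The RBPJ core was present in promoters without a peak. It lay in the 250 bases before the start in 18 of 34 matched MHC genes. By promoter that was 19 of 37 (51.4%), beside 21.6% of all promoters. Of these 18 genes 17 had no Notch1 peak within 5 kb, B2m, H2-Aa, Tapbp and H2-Q7 among them. Most genes had none, with 38 of the 41 MHC genes and 20005 of all 21938 protein-coding genes lacking a peak in that window. The 17 are therefore no result about the RBPJ core. Members of 1 group share sequence, and 6 of the 18 were H2-M10 genes, so these are not separate occurrences. In the 4 peaks near MHC genes the core was found in 0, while 29.5% of all nuclear peaks held it, and 11 of the 28 peaks of the region did. The RUNX string was in 3 of the 4 peaks (26.9% of all peaks), the CRE core in 2 (17.2%) and the ETS string in 1 (7.39%). Some of these matches lie in parts of the peaks that are not printed. A match of letters is not a binding site, and its absence from a peak says nothing of indirect binding.

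Other genes of the pathway were examined in lists drawn up with earlier results of these data known. Of 10 genes for the immunoproteasome, its activator and peptide trimming 5 had a peak within 5 kb, beside 8.81% of all protein-coding genes. By highest score these were the peptidase gene Tpp2 (2088), Psmb8 (1751, the Tap2 peak), the aminopeptidase gene Lnpep (875), and Psme1 and Psme2 (840.5, a tie), the adjacent genes of the proteasome activator. Psmb9, a further immunoproteasome gene next to Tap1, lay 9.21 kb from a peak. Of 7 genes for chaperones of loading and the translocon 2 had a peak, Hspa5 (1232) and Pdia3 (704), which encode endoplasmic reticulum folding proteins, while Calr and Canx had none. Of 9 matched genes for endosomal processing of class II 0 had one (Wilson 0 to 29.9%). Of 12 matched class I-like genes outside the MHC, such as Cd1d1, Mr1 and Fcgrt, 0 had one (0 to 24.2%). Both intervals hold the 8.81% of all protein-coding genes, so these lists cannot be said to lack peaks beyond counting error. The interval of the 7 chaperone and translocon genes (8.22 to 64.1%) also holds it. That of the 10 immunoproteasome, activator and trimming genes (23.7 to 76.3%) does not.

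Regulators of MHC genes had peaks at 7 of 21 genes (33.3%, Wilson 17.2 to 54.6), beside 8.81% of all protein-coding genes. Those of highest score were Creb1 (1053), which encodes a CRE-binding factor, the interferon-gamma receptor gene Ifngr1 (990.1) and the NF-kB subunit gene Nfkb1 (854). Irf2 (813), Rfx5 (655) and Atf1 (587), named here after their values were seen, also had one. Rfx5 encodes an X box factor, and its peak lay 435 bp from a start site. The genes of its partners Rfxap and Rfxank had no peak within 5 kb, nor did Nfya, Nfyb and Nfyc of the NF-Y complex. Over all 59 matched genes of these 5 lists, 14 had a peak (23.7%, Wilson 14.7 to 36), beside the same 8.81%. These shares are descriptions of 1 library and were not tested.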

How the data were processed

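Bowtie 1.0.0, SAMtools 0.1.18 and build mm10 appear in the submitters' processing notes, without settings. The peak list deposited by the authors has no header and gives each peak's coordinates, a MACS peak name and a score. Not given in the sources used here are the settings of the peak caller, the use of the input, the treatment of duplicate or multiply mapped reads and read depth. Per the labels' protocols, libraries had 18 cycles of PCR, so stacked duplicates can raise a deposited score.

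Peaks (5913, 3 of them mitochondrial and left out) were placed on GRCm38 with GENCODE M21. A gene had a peak if the nearest peak edge lay within 5 kb of any annotated start site. Soft-masked bases and 32-base strings repeated on either strand were counted in the primary assembly sequences. With 1 library, no test was made, and shares carry Wilson 95% intervals (Python 3.11.15, numpy 2.4.6, pandas 2.3.3, scipy 1.17.1). Counting code was tested on simulated data. Named genes were all of the 41 with a peak, 22 fixed ones, up to 4 per further list and the 10 peaks of highest score in the region. Alternatives changed the window, start sites, assignment, score and repeat limits. One gene that the rule names in a further list is counted there but not reported here. The genes and lists were chosen with earlier results of these data known.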

Additional observations from a re-analysis of the deposited data

How the results depend on the processing

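The share of MHC genes with a peak stayed inside its counting interval under 6 of 11 alternatives. It moved to 2.44% with a window of 1 kb (H2-DMa), with each peak given to its nearest start site (H2-DMa) and at or above the median score or in the upper quartile (both Tap2), and to 24.4% with a window of 20 kb. Under these settings the share of other protein-coding genes was 5.17% (1 kb), 7.81% (nearest), 5.07% (median), 2.62% (quartile) and 17.6% (20 kb), and that of other chromosome 17 genes was 6.87%, 9.52%, 6.97%, 3.53% and 23.7%. With start sites of protein-coding transcripts or 1 start per gene, 2 MHC genes were left (4.88%), beside 7.56% and 6.52% of other genes and 9.22% and 8.15% on chromosome 17. Without peaks of at least 20% soft-masked sequence, of at least 50%, or with a repeated string, the MHC share stayed at 7.32%. Other genes then had 6.37%, 8.36% and 6.89%, and those of chromosome 17 had 8.05%, 10.7% and 8.54%. The density in the MHC region fell to 4.01 peaks per Mb at the median score, 3.15 in the upper quartile and 5.45 under 20% soft-masked or without repeated strings, beside 1.55, 0.737, 1.78 and 1.96 in the rest of chromosome 17, which had 2.64 under 50% soft-masked. The median soft-masked share of the peaks was 18.1% within 1 kb, 17.4% by nearest start and 11.8% with either score limit. The cause of these shifts was not tested. Read depth is unknown, so whether weaker binding at class I genes was missed cannot be told. No paired analysis was possible because each group has 1 library.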
